A study of Mus musculus with 6 samples.

Results

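The potassium channel genes described here were chosen by gene symbol, as every row of the count files whose symbol begins with Kcn apart from Kcnq1, Kcnq1ot1 and Kcnk9. Of 98 such rows, 95 were kept, out of 24453 genes in the files. The symbol rule uses no measured value, but the family was proposed with results of the mutant-to-control comparison known, so counts of changed members are given beside the background over all genes as a description and nothing is read from the difference.

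RNA was measured by sequencing in hair follicle cells from the skin of mice on postnatal day 0. The 3 HF_I53A libraries came from Ring1a-/- Ring1b-/I53A animals and were compared with the 3 HF_CTL libraries. By genotype the mutants have no functional Ring1a, have a null Ring1b allele, and carry the I53A substitution on the other Ring1b allele, which impairs the ubiquitin ligase activity of RING1B while the protein is still made. The labels give the reference animals as controls and name no allele, Cre driver or strain for either group, so it is not known here whether the deletions were made throughout the animal or in the epithelium, and nothing says that the replicates of a group came from separate animals. P-values therefore measure the spread between these libraries, which may be technical. The protocol text describes a sort of EpCAM-positive, Sca1-positive, α6-integrin-high cells as interfollicular epidermis, whereas the library labels name hair follicle cells; which gate these libraries came from is not stated. Follicle and basal keratinocyte genes were high in both groups, with Krt5 at 9845 and 7911 CPM (counts scaled to library size, with TMM factors) in HF_I53A and HF_CTL libraries and Sox9, a follicle progenitor factor, at 575 and 536 CPM.

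RING1A and RING1B are the catalytic subunits of Polycomb repressive complex 1, which adds ubiquitin to histone H2A, often at CpG-rich promoters of genes that are silent in a lineage. Potassium channels let potassium leave or enter cells along its gradient. They fall into voltage-gated channels, calcium- and sodium-activated channels of the SK and Slo families, tandem-pore leak channels and inward rectifiers, and many assemble with auxiliary subunits that alter their gating or traffic. Many of these genes are best known from neurons, heart, muscle, kidney or pancreatic beta cells, and several leak and rectifier genes are also expressed in epithelia.

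Promoter windows from RefSeq (GRCm38.p6) are shown for 3 members that were higher in mutant libraries and for Kcnj15, the member with the most CPM in all 6 libraries, whose groups overlapped. Each is the 250 bases before the annotated start, on the gene's strand, and capitals mark CpG dinucleotides. The Kcnd3 window lies at chr3:105451640-105451889 on the plus strand and overlaps annotated exons of the antisense gene Kcnd3os by 88 bases. The Kcnj4 window lies at chr15:79505242-79505491 on the minus strand, the Kcnip1 window at chr11:33843687-33843936 on the minus strand, and the Kcnj15 window at chr16:95257308-95257557 on the plus strand. Kcnip1 has 3 windows in the table, and the one with the highest ratio of observed to expected CpG is shown. It lies inside the annotated Kcnip1 gene body. Kcnma1, also higher in mutant libraries, has a window with 31 CpG that lies in an annotated first exon and is not shown.
Kcnd3: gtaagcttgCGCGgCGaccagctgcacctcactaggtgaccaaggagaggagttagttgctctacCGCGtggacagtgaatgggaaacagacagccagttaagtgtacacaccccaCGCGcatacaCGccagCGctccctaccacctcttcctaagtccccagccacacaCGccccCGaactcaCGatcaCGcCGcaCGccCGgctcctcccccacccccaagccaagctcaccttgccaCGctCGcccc
Kcnj4: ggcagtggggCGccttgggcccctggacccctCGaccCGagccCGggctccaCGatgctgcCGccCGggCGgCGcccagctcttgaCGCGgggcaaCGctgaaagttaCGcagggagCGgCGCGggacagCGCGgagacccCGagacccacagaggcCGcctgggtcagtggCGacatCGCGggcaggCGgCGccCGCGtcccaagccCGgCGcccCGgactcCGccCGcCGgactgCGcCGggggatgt
Kcnip1: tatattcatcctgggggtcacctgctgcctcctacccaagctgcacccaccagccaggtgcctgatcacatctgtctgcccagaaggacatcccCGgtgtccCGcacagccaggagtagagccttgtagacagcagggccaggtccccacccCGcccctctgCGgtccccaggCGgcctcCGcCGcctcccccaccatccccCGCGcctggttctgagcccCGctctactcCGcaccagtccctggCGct
Kcnj15: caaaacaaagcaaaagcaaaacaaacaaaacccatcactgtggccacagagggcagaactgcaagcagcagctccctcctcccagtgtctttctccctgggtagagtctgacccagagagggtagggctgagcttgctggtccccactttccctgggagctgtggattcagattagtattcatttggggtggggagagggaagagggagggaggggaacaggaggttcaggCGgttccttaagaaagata

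The Kcnj4 window held 35 CpG, and 2.97% of the 32851 windows in the table held at least as many. Kcnd3 had 18 CpG in its window, a number reached by 21.7% of all windows, and Kcnip1 had 12, reached by 33.5%. The Kcnj15 window held 1 CpG, and 92.1% of all windows held at least as many; the median window held 6. A comparison of CpG content over the family is void, because only 72 of the 95 members matched a window. The 4 windows are therefore a description of single genes, and a CpG count says nothing about which proteins bind there.

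Depth was similar across libraries, at 15661124 to 17278824 reads in genes in HF_I53A libraries and 14335156 to 18811587 in HF_CTL libraries. Control library 2 had reads in fewer genes than any other library, 15845 against 17088 to 17886, and in 54 members against 72 to 82; its 0 counts enter the low control levels of Kcnb2, Kcnip1 and Kcnj4 given below. The genotype was checked on Ring1, which had 5.07 ± 1.94 CPM in HF_I53A libraries and 20.0 ± 2.80 CPM in HF_CTL libraries (SD, n = 3 each; log2 fold change -1.98, SE 0.33, adjusted p = 0.0113 by edgeR's quasi-likelihood test with Benjamini-Hochberg adjustment). Rnf2, which encodes RING1B, was at 67.1 and 59.8 CPM in HF_I53A and HF_CTL libraries (log2 fold change 0.17). A point mutation need not alter its count. No fall from the null Ring1b allele was seen either, so the Ring1b genotype was not checked by this count.

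Members drew 431, 497 and 563 CPM in the mutant libraries 1, 2 and 3, against 283, 280 and 405 CPM in the control libraries 1, 2 and 3. Most of the family was expressed at low levels: 92 members had at least 1 read, 51 passed the filter on low counts and entered the test over all 14345 genes, and 44 did not, of which Kcna10, Kcnk15 and Kcnk16 had no read. Of the tested members, 8 were higher in mutant libraries and 0 lower at an adjusted p under 0.05 in edgeR's quasi-likelihood test with Benjamini-Hochberg adjustment. Among the 8 are Kcna1, Kcnb2, Kcnd3 and Kcnh3 of the voltage-gated class, Kcnma1 of the Slo family, the inward rectifier Kcnj4 and the auxiliary subunit gene Kcnip1. Over all genes tested, 3% were called, 2.59% as higher and 0.404% as lower. Among tested members, 2 were lower at an unadjusted p under 0.05, against 5.44% of all genes. DESeq2 called 15 members higher and 1 lower, where it called 5.15% and 1.72% of all genes, and limma-voom called 9 higher and 0 lower, where it called 2.5% and 0.453% of all genes. With the replicate number as a block, 13 members were higher and 1 lower, against 6.09% and 3.29% of all genes. All 8 calls of the unblocked test were also made with the block and by DESeq2. The tested members had a median log2 fold change of 0.81, with 32 of 51 above 0, where all genes tested had a median of -0.00 and 49.7% above 0. The members' median was 0.34 over the 92 members fitted with no filter, 0.30 without mutant library 2 or control library 2, and 0.47 without mutant library 3. A member that is nearly silent in controls enters the test only if it is high in mutants, and 15 of the 51 were under 1 CPM in controls, so these figures describe the tested members and not the 95. Of the 92 members with reads, 21 had every mutant library above every control library and 1 had every mutant library below, against 9.92% and 7.31% of the genes with reads.

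By class, the voltage-gated members differed most in summed CPM and the SK and Slo channel genes most as a ratio, at 3.76-fold and 3.88-fold between the mutant and control means. The 39 voltage-gated genes summed to 188 ± 12.7 CPM in HF_I53A libraries and 50.1 ± 14.8 CPM in HF_CTL libraries (SD, n = 3 each). The 8 SK and Slo channel genes summed to 46.6 ± 1.48 CPM in mutants and 12.0 ± 6.70 CPM in controls, and the 13 tandem-pore genes to 80.8 ± 7.80 CPM in mutants and 51.5 ± 5.53 CPM in controls. In these 3 classes every mutant library exceeded every control library. Single genes held large parts of the first 2 differences. Kcna1 was at 68.1 and 8.74 CPM in mutants and controls, and Kcnn3, which edgeR did not call, at 26.0 and 5.12 CPM. The 15 inward rectifiers summed to 134 ± 63.5 CPM in mutants and 161 ± 59.5 CPM in controls, and the 17 auxiliary subunit and regulator genes to 46.1 ± 9.48 and 47.2 ± 9.82 CPM in mutants and controls, with overlapping groups in both. Kcnj15 alone made up most of the inward rectifier sum. Without it, the other 14 summed to 23.7, 18.1 and 23.9 CPM in mutants and 31.5, 25.6 and 28.3 CPM in controls, with every mutant library below every control library. Most of the difference in means of these 14 came from Kcnj2, at 2.97 and 8.81 CPM in mutants and controls. Of the 15 inward rectifiers, 4 had every mutant library above every control library and 0 had the reverse. The shares of genes with reads were 9.92% and 7.31%. The remaining 3 members are antisense transcripts, of which Kcnmb4os2 was tested (log2 fold change -0.55, adjusted p = 0.831 by edgeR). Sums were not tested, because the members were chosen with the comparison known. In bulk RNA, a change in the number of cells that express a gene and a change in RNA per cell cannot be told apart.

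**Figure D1:**
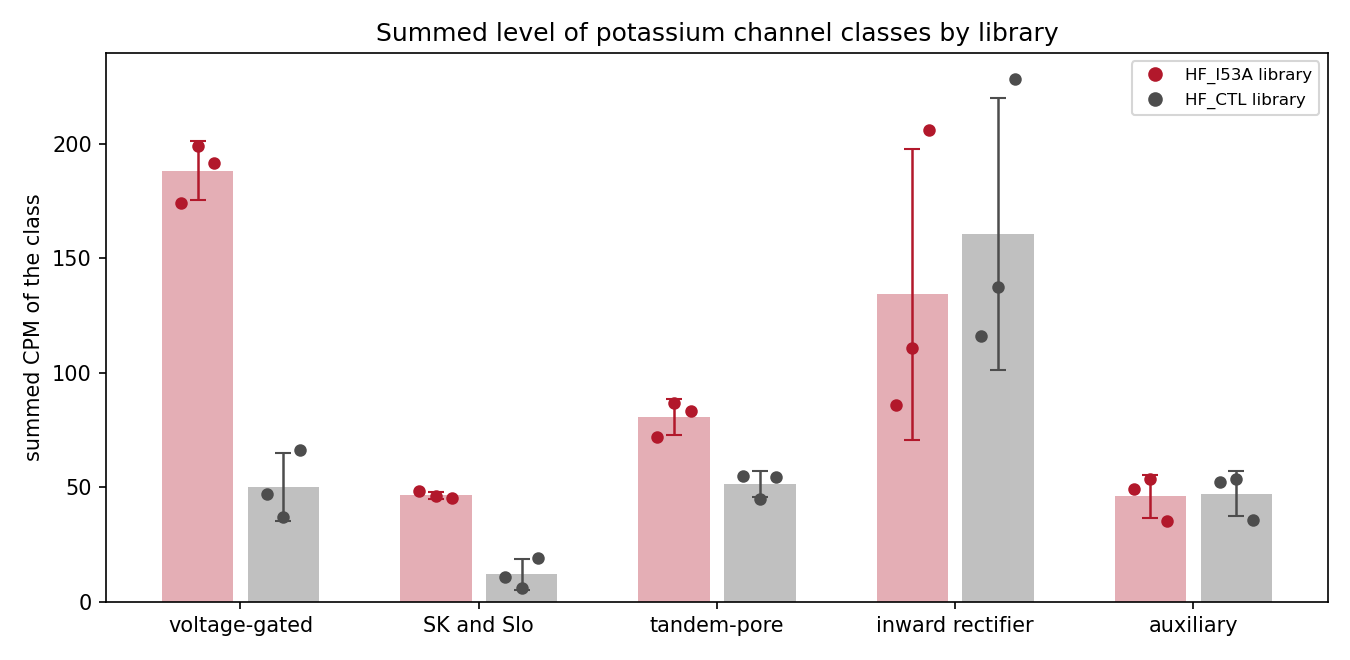
Summed CPM of the members of each class in each library (points, HF_I53A left of HF_CTL; bars are the mean and error bars the SD of 3 libraries). The voltage-gated sums lie at 174 to 199 CPM in mutants and 37.0 to 66.1 CPM in controls, while the inward rectifier sums, most of which are Kcnj15, overlap.

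**Figure D2:**
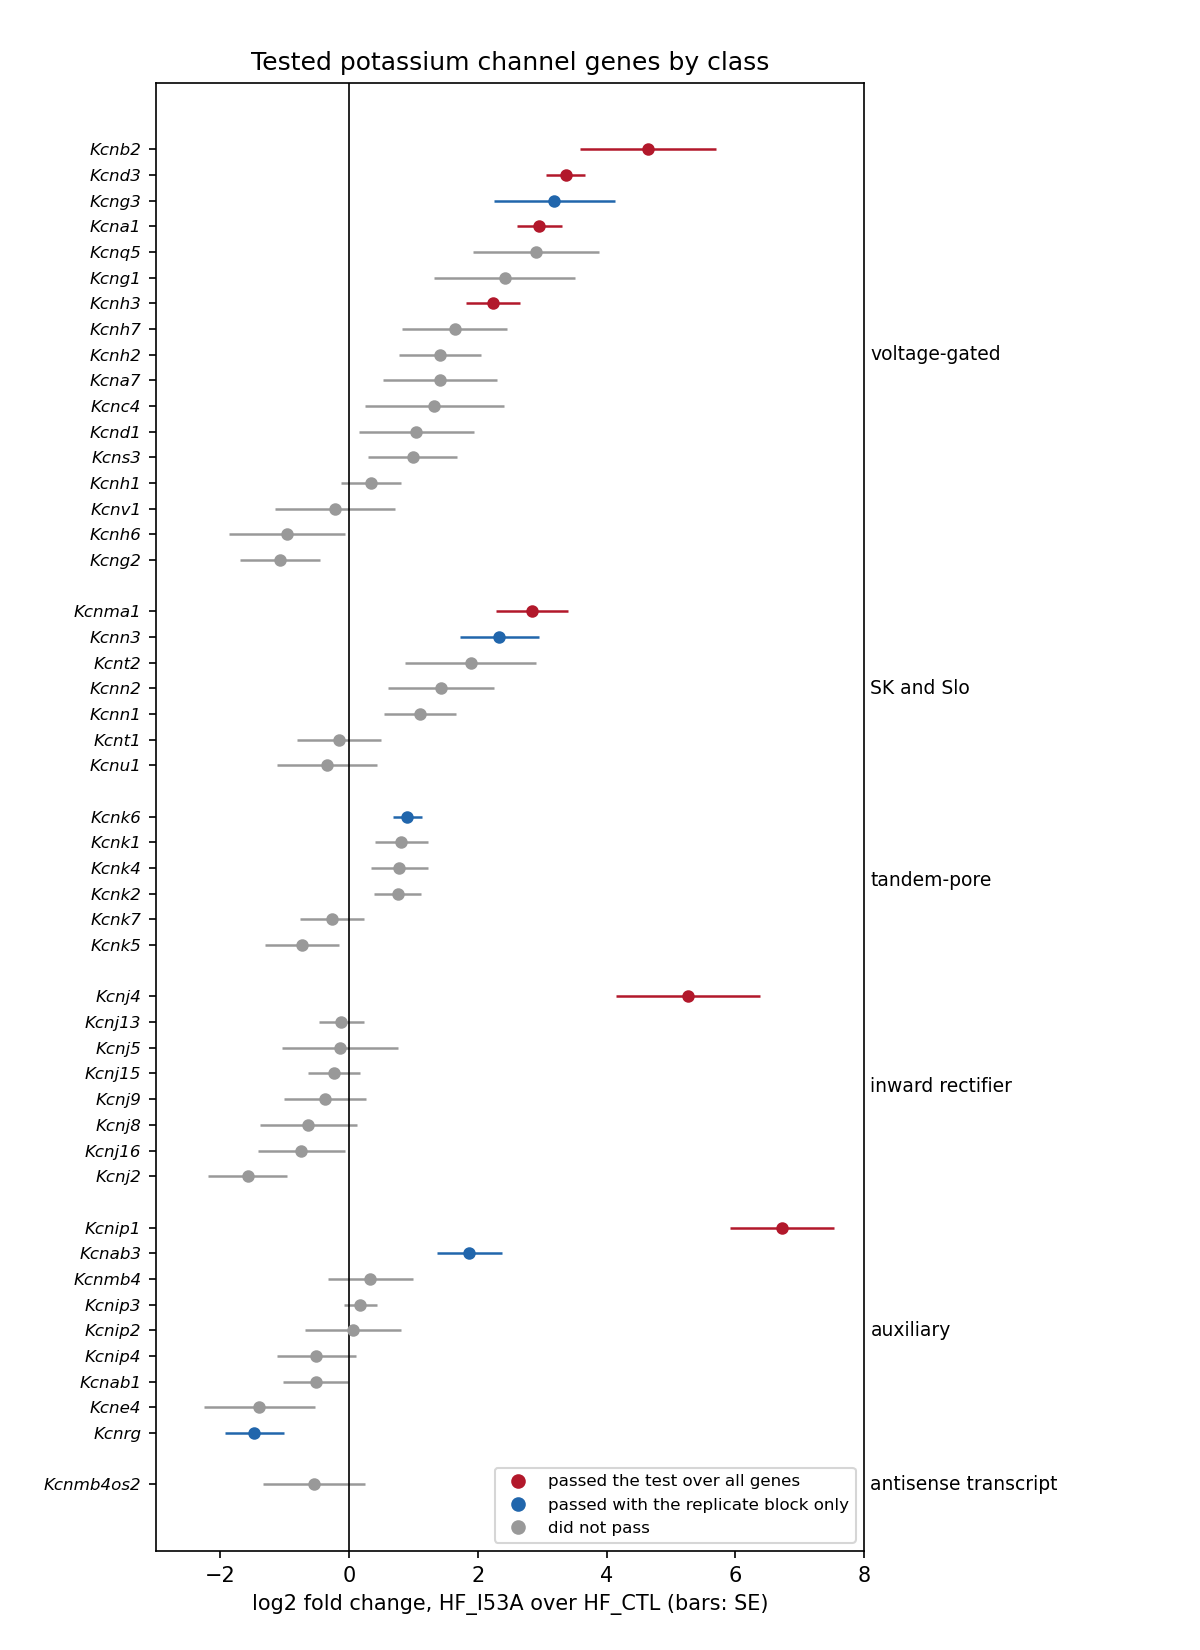
Log2 fold change, HF_I53A over HF_CTL, of tested members by class (1 point per gene, error bars SE; red passed an adjusted p under 0.05 in edgeR's test, blue passed with the replicate block and not without it, grey passed neither). The red points lie above 0. Of the tested genes, drawn or not, 17 of the 20 voltage-gated genes and 1 of the 8 inward rectifiers had a log2 fold change above 0. Some tested members are not drawn. Untested members, among them 3 inward rectifiers with more reads in every mutant library, are not drawn either. The fitted values of Kcnip1 and Kcnj4, which had 3 and 1 control reads, depend on the prior count and are no bound.

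Among the voltage-gated genes, 20 of 39 were tested, 5 were higher in mutants, and 17 had a log2 fold change above 0. Kcna1 encodes Kv1.1, a delayed rectifier that limits the excitability of axons. Its counts were 60.5, 65.2 and 78.6 CPM in HF_I53A libraries, against 8.18, 4.58 and 13.5 CPM in HF_CTL libraries. The lowest mutant library was therefore several times the highest control. The means were 68.1 ± 9.40 CPM in mutants and 8.74 ± 4.46 CPM in controls (SD, n = 3 each; log2 fold change 2.96, SE 0.35, adjusted p = 0.00234 by edgeR), and the call was kept when any 1 library was left out. Kcna1 (chr6:126640397-126646384, minus strand) was the only member of the Kcna subfamily that was called. The neighbouring Kcna5 and Kcna6 lie 105 and 61.9 kb from it and were not tested. Kcna5 had 3 reads, all in mutant library 2, and 0 in controls, and Kcna6 had 6, 5 and 1 reads in mutants and 0, 0 and 37 in controls. Of the other Kcna genes, Kcna7 alone was tested (1.37 CPM in mutants and 0.513 in controls, adjusted p = 0.528 by edgeR).

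Kcnd3 encodes Kv4.3, which carries the transient A-type outward current of heart and neurons. It had 21.6, 19.7 and 20.2 CPM in HF_I53A libraries, against 1.50, 1.82 and 2.61 CPM in HF_CTL libraries. Both groups were tight and far apart, at 20.5 ± 0.995 CPM in mutants and 1.98 ± 0.572 CPM in controls (SD, n = 3 each; log2 fold change 3.36, SE 0.31, adjusted p = 0.000528 by edgeR). This was the smallest adjusted p in the family, and the call was kept without any 1 library. The antisense gene Kcnd3os, which overlaps Kcnd3 (chr3:105452330-105674002, plus strand), had 11 reads in mutants and 3 in controls, beside 1026 and 97 reads of Kcnd3 in mutants and controls. Kcnip1 encodes KChIP1, a calcium-binding subunit that increases the surface level of Kv4 channels. Its reads numbered 128, 189 and 60 in HF_I53A libraries and 2, 0 and 1 in HF_CTL libraries. With 3 control reads in all, the gene was near the floor of detection in controls. The ratio of summed reads, scaled to summed library sizes, was 121 (exact 95% interval 41.2 to 591, counting error only). The adjusted p was 0.00247 by edgeR and the call was kept without any 1 library. Kcnip1 lies at chr11:33629339-33993152 on the minus strand. Of the other Kv4 genes, Kcnd1 had 2.88 and 1.40 CPM in mutants and controls with overlapping groups (adjusted p = 0.671), and Kcnd2 had 4 reads in mutants and 28 in controls and was not tested.

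**Figure D3:**
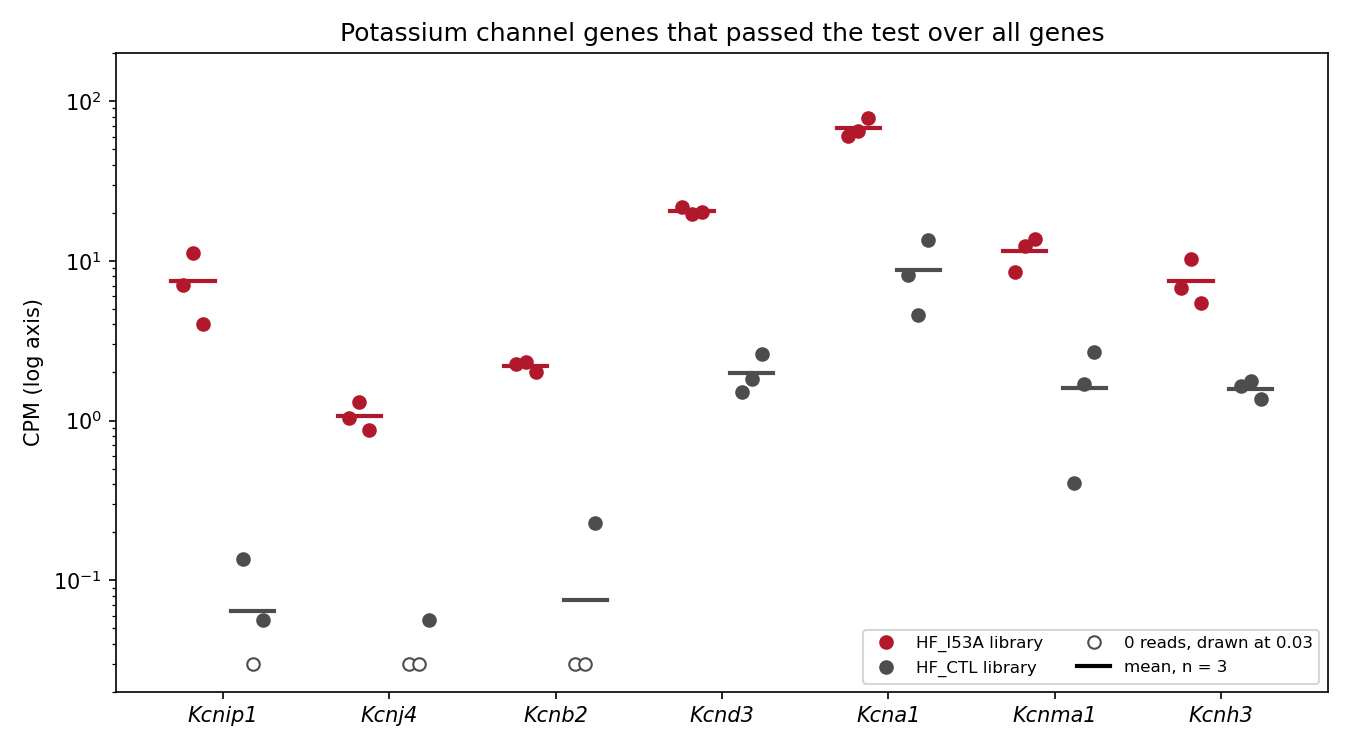
CPM of called members in each library (log axis; HF_I53A points left of HF_CTL; lines are the mean of 3 libraries, open points are libraries with 0 reads). In each gene the 3 mutant points lie above the 3 control points, and Kcnb2, Kcnip1 and Kcnj4 have at least 1 control library with 0 reads.

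Kcnh3 encodes a voltage-gated channel of the EAG family that is best known in forebrain. Its levels were 6.74, 10.3 and 5.41 CPM in HF_I53A libraries and 1.64, 1.76 and 1.36 CPM in HF_CTL libraries, so that controls were close together and all mutants were above them (log2 fold change 2.23, SE 0.42, adjusted p = 0.0218 by edgeR). The adjusted p was 0.0729 and 0.142 without mutant library 1 or 2 and 0.0805 without control library 1. An exon of Kcnh3 overlaps Mcrs1 on the opposite strand, and Mcrs1 had 4.60 and 4.79 CPM in mutants and controls (adjusted p = 0.976). Kcnh3 lies at chr15:99224861-99242817 on the plus strand.

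Kcnb2 encodes Kv2.2, a delayed rectifier, and was nearly absent from controls. It had 41, 39 and 30 reads in HF_I53A libraries and 0, 0 and 4 in HF_CTL libraries. Mutants were even and all control reads came from 1 library. The means were 2.19 ± 0.167 CPM in mutants and 0.0757 ± 0.131 CPM in controls (log2 fold change 4.64, SE 1.06, adjusted p = 0.0490 by edgeR). This call is the least stable of the voltage-gated ones: the adjusted p was 0.159, 0.172 and 0.111 without mutant library 1, 2 or 3, 0.171 and 0.119 without control library 1 or 2, and 0.0519 with another size factor (RLE). Kcnb2 lies at chr1:15287254-15723750 on the plus strand. Kcng3, whose product is electrically silent alone and modifies Kv2 channels, had 144, 55 and 92 reads in mutants and 1, 2 and 29 in controls. Control library 3 held most of its control reads, and the adjusted p was 0.122 with all libraries, 0.00351 without that library, and 0.0243 with the block.

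Other voltage-gated members had non-overlapping groups but did not pass the test. Kcnh2, encoding the HERG channel, had 7.71 ± 2.77 CPM in mutants and 2.89 ± 2.16 CPM in controls (adjusted p = 0.343 by edgeR). Kcnh7 had 5.61 ± 1.22 CPM in mutants and 1.78 ± 1.53 CPM in controls (adjusted p = 0.399), where control library 1 held 1 of its 89 control reads. Its exons overlap those of Gca on the opposite strand, which was at 10.3 and 10.6 CPM in mutants and controls (adjusted p = 0.982 by edgeR). Kcnq5, a member of the Kv7 family, had 1.91 ± 0.893 CPM in mutants and 0.250 ± 0.219 CPM in controls (adjusted p = 0.176 by edgeR), and DESeq2 called it (adjusted p = 0.0496). Kcng2 was the one tested member with every mutant library below every control library, at 1.37 ± 0.836 CPM in mutants and 2.90 ± 0.478 CPM in controls (adjusted p = 0.484). Kcns3, a silent subunit like Kcng3, overlapped between groups at 9.33 and 4.69 CPM in mutants and controls (adjusted p = 0.585). Without control library 3, whose level was 10.6 CPM, its adjusted p was 0.0263. Kcnv1 overlapped as well, at 0.666 and 0.770 CPM in mutants and controls.

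In the SK and Slo class, 7 of 8 members were tested and Kcnma1 was called. Kcnma1 encodes the pore of the large-conductance BK channel, which opens with calcium and depolarization. Its levels were 8.55, 12.4 and 13.8 CPM in HF_I53A libraries and 0.409, 1.69 and 2.67 CPM in HF_CTL libraries. The groups were well apart, at 11.6 ± 2.71 CPM in mutants and 1.59 ± 1.13 CPM in controls (SD, n = 3 each; log2 fold change 2.84, SE 0.56, adjusted p = 0.0265 by edgeR). Its adjusted p was 0.0581, 0.102 and 0.0692 without mutant library 1, 2 or 3, and 0.0841 without control library 2. Kcnma1 lies at chr14:23289431-24014491 on the minus strand. Of the BK beta subunit genes, Kcnmb4 alone was tested, at 1.96 and 1.55 CPM in mutants and controls (adjusted p = 0.885); it overlaps the antisense genes Kcnmb4os1 and Kcnmb4os2. Kcnmb1, Kcnmb2 and Kcnmb3 were at or under 0.776 CPM in both group means.

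Kcnn3 encodes the small-conductance channel SK3, which is opened by calcium through bound calmodulin. It had 30.7, 22.4 and 24.9 CPM in HF_I53A libraries and 4.09, 1.00 and 10.3 CPM in HF_CTL libraries, so all mutants were above all controls but the controls were scattered. The log2 fold change was 2.34 (SE 0.61, adjusted p = 0.0801 by edgeR), and it passed with the replicate block (adjusted p = 0.0104), in limma-voom (adjusted p = 0.0290), and without control library 3 (adjusted p = 0.00401). Kcnn1 also had non-overlapping groups, at 2.91 ± 0.887 CPM in mutants and 1.36 ± 0.445 CPM in controls, and did not pass (adjusted p = 0.414). Kcnn2 had 1.54 and 0.563 CPM in mutants and controls with overlap. Kcnt2 had 2.61 and 0.700 CPM in mutants and controls, and the testis gene Kcnu1 had 0.554 and 0.703 CPM, also with overlap.

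Of 13 tandem-pore genes, which make background leak channels, 6 were tested and 0 were called by edgeR. Kcnk6 had an unadjusted p under 0.05 and was called by the blocked test and by DESeq2, and limma-voom called 0. Kcnk6 encodes TWIK2. It had 17.0, 18.2 and 20.3 CPM in HF_I53A libraries and 9.27, 9.91 and 10.4 CPM in HF_CTL libraries. The groups were tight and did not overlap, with a log2 fold change of 0.91 (SE 0.23, adjusted p = 0.0670, and 0.0290 with the block). Kcnk1, encoding TWIK1, had 18.7, 25.6 and 30.7 CPM in mutants and 9.06, 8.41 and 25.1 CPM in controls. Control library 3 reached the mutant range, and the adjusted p was 0.410 with all libraries and 0.0159 without that library. Kcnk2 encodes the stretch-sensitive channel TREK1, and its 22.6 ± 4.39 CPM in mutants and 13.4 ± 6.82 CPM in controls overlapped (adjusted p = 0.388). Kcnk5, with 3.90 and 6.46 CPM in mutants and controls, had the lowest log2 fold change of the class (-0.73).

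The inward rectifiers included the member with the most reads. Kcnj15, which encodes Kir4.2, had 62.1, 92.8 and 182 CPM in HF_I53A libraries and 84.6, 112 and 200 CPM in HF_CTL libraries. Libraries with the same number were close in level and the groups overlapped (log2 fold change -0.24, SE 0.40, adjusted p = 0.859 by edgeR); its sign changed without mutant library 1 (0.06) and without control library 3 (0.20). Per kilobase of exon it also stood first, at 17.8 and 20.9 CPM per kb in mutants and controls, followed by Kcnk1 at 11.2 and 6.36, Kcnj13 at 7.88 and 8.59, Kcna1 at 14.2 and 1.83 and Kcnrg at 3.24 and 9.02 CPM per kb in mutants and controls (order by the mean over all 6 libraries). Kcnj13, encoding Kir7.1, had overlapping groups. Its exons overlap those of the far more abundant Gigyf2 on the opposite strand (log2 fold change 0.08, adjusted p = 0.870 by edgeR), and reads of these genes cannot be told apart, so its rank is uncertain. Kcnj2, the classical strong rectifier Kir2.1, had 1.15, 1.61 and 6.15 CPM in mutants and 10.5, 10.4 and 5.51 CPM in controls. Mutant library 3 was inside the control range, and the log2 fold change of -1.57 did not pass (adjusted p = 0.257, and 0.0257 without that library).

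Kcnj4 was the one inward rectifier that was called. It encodes Kir2.3 and had 19, 22 and 13 reads in HF_I53A libraries against 0, 0 and 1 in HF_CTL libraries. The ratio of summed reads, scaled to summed library sizes, was 52.1, with an exact 95% interval of 8.97 to 2.1e+03 for counting error only. The adjusted p was 0.0352 by edgeR. With so few reads the call was lost whichever library was left out (adjusted p 0.0583 to 0.172) and with no filter (0.0569). Kcnj4 lies at chr15:79483714-79505241 on the minus strand. Below the filter, Kcnj11 had 7, 28 and 36 reads in mutants and 0, 0 and 2 in controls, a ratio of 34.3 (exact 95% interval 9.14 to 288). Kcnj10 had 6, 4 and 4 reads in mutants and 0 in every control, and Kcnj3 had 11, 2 and 1 reads in mutants and 0 in every control. Taking 3 counts over the control group, the most that a total of 0 allows, each was 4.50-fold higher in mutants. This treats the mutant reads as exact, so it is not a lower bound. Kcns2 had 18 reads in mutants and 0 in controls, and Kcne2 had 0 in mutants and 20 in controls, but in each gene some libraries of the group with reads were also at 0.

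Kcnj11 encodes the pore of the ATP-sensitive channel of beta cells and Abcc8 its sulfonylurea receptor; the 2 genes lie 3.76 kb apart on chromosome 7. Abcc8, which the symbol rule leaves out, had 15.4, 15.4 and 10.8 CPM in HF_I53A libraries and 0.477, 0 and 1.53 CPM in HF_CTL libraries. The groups did not overlap, and Abcc8 was higher in mutants (13.9 ± 2.69 CPM against 0.670 ± 0.784 CPM in controls, log2 fold change 4.33, SE 0.80, adjusted p = 0.0198 by edgeR). The adjusted p was 0.0729 and 0.0803 without mutant library 1 or 2 and 0.0926 without control library 1. The other pair of the family, Kcnj8 and Abcc9, which lie 16.2 kb apart on chromosome 6, had overlapping groups. Kcnj8 had 0.488 and 0.762 CPM in mutants and controls, and Abcc9 had 2.75 and 3.02 CPM.

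**Figure D4:**
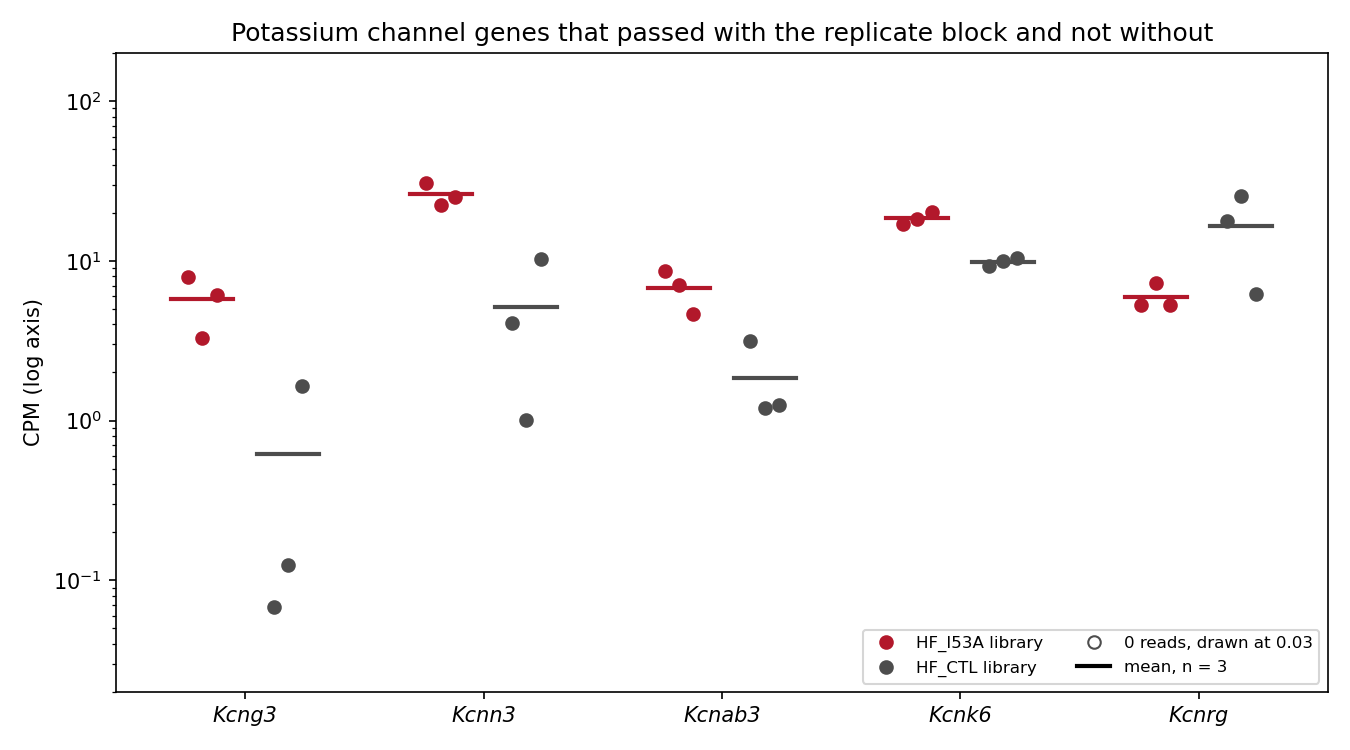
CPM of members that passed with the replicate block and not without it (log axis; HF_I53A points left of HF_CTL; lines are the mean of 3 libraries). In Kcng3, Kcnn3, Kcnab3 and Kcnk6 the mutant points lie above the control points, and in Kcnrg the mutant mean of 5.92 CPM lies below the control mean of 16.5 CPM with overlapping points.

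Among the 17 auxiliary genes, 9 were tested and Kcnip1 was called. Kcnab3, which encodes a beta subunit of Kv1 channels, had 8.61, 7.10 and 4.61 CPM in HF_I53A libraries and 3.13, 1.19 and 1.25 CPM in HF_CTL libraries. The groups did not overlap, and the log2 fold change of 1.87 (SE 0.51) missed the threshold (adjusted p = 0.0926 by edgeR) and passed with the block (adjusted p = 0.0228). Kcnrg, whose product is a soluble protein that lowers Kv channel activity, had 5.26, 7.21 and 5.28 CPM in mutants and 17.6, 25.5 and 6.19 CPM in controls. Mutant library 2 exceeded control library 3, so the groups overlapped. Its log2 fold change was -1.47 (SE 0.46, adjusted p = 0.143 by edgeR, 0.0495 with the block, 0.00741 without control library 3), which makes it the one member that fell in the blocked test. Kcnip3, encoding KChIP3, a calcium sensor also called DREAM, had 11.9 ± 1.75 CPM in mutants and 10.5 ± 1.16 CPM in controls (adjusted p = 0.838). Kcnip2 and Kcnip4 overlapped too, so Kcnip1 was the one KChIP gene that was called. Kcne4 had 0.804 and 2.14 CPM in mutants and controls (adjusted p = 0.518).

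**Figure D5:**
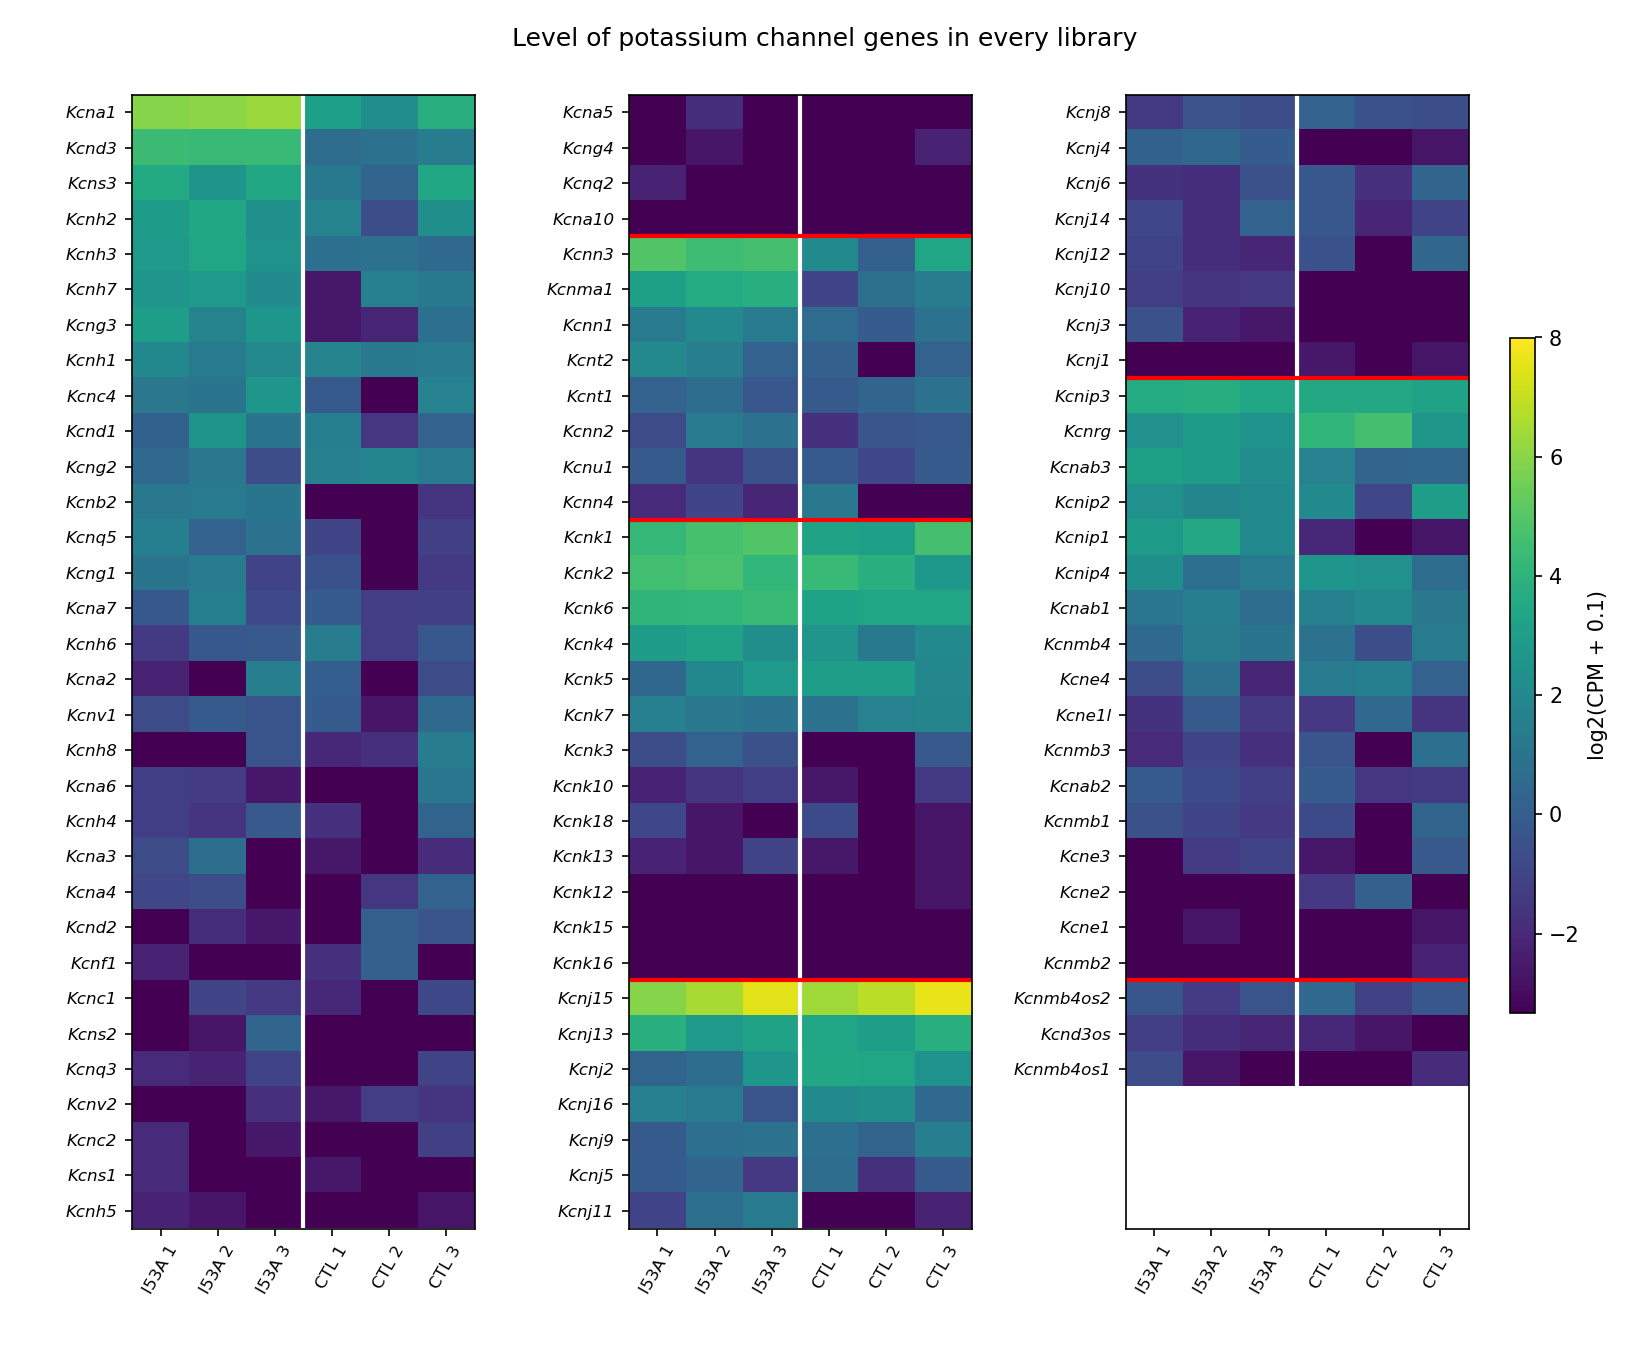
Heat map of log2(CPM + 0.1) of members in each of 6 libraries (brighter is higher; HF_I53A columns left of HF_CTL columns; red lines part the classes, ordered as in the plot of log2 fold changes). Kcnj15 is the brightest row in all 6 columns, Kcna1 is brighter in the 3 mutant columns, and the lower rows of each class are dark in both groups.

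Control library 3 often stood apart from the other controls for these genes. It was the highest control for 24 of the 51 tested members (47.1%; 35.1% of all genes), and control library 2 was the lowest for 26 (51%; 35.9% of all genes), with 8 tested members at 0 reads. Without control library 3, 11 members were higher and 1 (Kcnrg) lower, beside 554 and 110 of all genes. Without control library 1 or 2, 4 and 5 members were higher, beside 171 and 251 genes. Without mutant library 1, 2 or 3, 4, 3 and 5 members were higher, beside 199, 143 and 269 genes, and without mutant library 3 Kcnj2 was lower. Marker genes of other cell types were examined because many members are known from excitable cells. Of 65 markers in 10 lists, 45 were tested and 0 were called by edgeR, where 3% of all genes were called. An unadjusted p under 0.05 by edgeR was found for 5. DESeq2 called 2, where it called 5.15% of all genes higher and 1.72% lower. The blocked test called 3, where it called 6.09% of all genes higher and 3.29% lower. Summed neuronal markers were at 5.90 to 6.48 CPM in mutants and 1.26 to 10.3 CPM in controls, so they were detected at a low level in both groups. Among them Rbfox3, a nuclear protein of mature neurons, was at 1.64, 1.79 and 1.80 CPM in mutants and 0.681, 0.377 and 0.114 CPM in controls, without overlap (log2 fold change 2.16, adjusted p = 0.206 by edgeR), while Snap25 and Syt1 were highest in control library 3. No marker of the 10 lists was at 0 in all 6 libraries. Schwann cell and glial markers were at 40.2 to 60.8 CPM in mutants and 20.8 to 43.2 CPM in controls. Pericyte and smooth muscle markers were at 304 to 464 CPM in mutants and 217 to 328 CPM in controls, most of it Cspg4 and Notch3. Myh11, a smooth muscle myosin of that list, was at 1.70, 1.67 and 1.80 CPM in mutants and 3.20, 5.33 and 6.07 CPM in controls (log2 fold change -1.50, adjusted p = 0.136 by edgeR and 0.0280 by DESeq2). Merkel cell markers were at 29.9 to 54.3 CPM in mutants and 16.8 to 53.5 CPM in controls, melanocyte markers at 28.0 to 58.4 and 26.2 to 47.7 CPM, and endothelial markers at 13.2 to 26.7 and 11.1 to 14.5 CPM. Fibroblast markers were at 655 to 923 and 588 to 1024 CPM in mutants and controls, leukocyte markers at 12.5 to 23.3 and 15.1 to 62.0 CPM, and keratinocyte markers at 12728 to 17741 and 11074 to 13826 CPM. Skeletal muscle markers were the one list whose sums did not overlap, at 1.31 to 2.14 CPM in mutants and 3.20 to 5.45 CPM in controls. By replicate number, the sums of Schwann cell, endothelial, Merkel cell and keratinocyte markers were higher in the mutant library in 3 of 3 pairs. The blocked edgeR test called the keratinocyte genes Krt17 (adjusted p = 0.00366) and Krt5 (0.0476) and the myelin protein gene Mbp (0.0350). All had higher means in mutants. Krt17 was at 348 and 208 CPM in mutants and controls, without overlap (adjusted p = 0.0766 by edgeR without the block and 0.0225 by DESeq2). The part of these cell types in the results was not tested.

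Other genes of potassium transport were listed by role: 40 sulfonylurea receptors, channel partners, scaffolds, pumps, pump regulators and cotransporters. Of these, 27 were tested, 2 were higher in mutants and 1 was lower by edgeR, against 2.59% and 0.404% of all genes tested. The median log2 fold change of the 27 was 0.04. Beside Abcc8, the gene for the sodium pump beta subunit Atp1b1 was higher in mutants, at 29.5, 46.4 and 36.1 CPM against 11.5, 17.1 and 17.4 CPM in controls (log2 fold change 1.28, SE 0.25, adjusted p = 0.0251 by edgeR). Its adjusted p was 0.122 and 0.0533 without mutant library 2 or 3 and 0.102 and 0.0587 without control library 1 or 2. Its exons overlap Nme7 on the opposite strand. Atp1b3, another beta subunit gene, was lower, at 73.4, 79.9 and 70.7 CPM in mutants and 140, 132 and 104 CPM in controls (log2 fold change -0.75, SE 0.17, adjusted p = 0.0445), and its call was lost with library totals alone as the scale (adjusted p = 0.0748). The adjusted p was 0.159, 0.143 and 0.103 without mutant library 1, 2 or 3, and 0.191 and 0.125 without control library 1 or 2. The groups did not overlap in either gene. Dlg1, a scaffold that binds Kv1 channels, had 131 and 146 CPM in mutants and controls (adjusted p = 0.671), and the cotransporter gene Slc12a2 had 87.0 and 91.1 CPM with overlapping groups (adjusted p = 0.924).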

How the data were processed

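Each of the 6 deposited tables gives raw counts by gene symbol, made by the authors from 100-nucleotide single reads of RNA amplified with the Ovation system, per the labels' protocols. The submitters' processing notes name DESeq2 1.6.3, HTSeq 0.6.1, TopHat2 2.0.13 and Cufflinks 2.2.1, and mm10 as the build. They do not state a strand setting, so overlapping genes on opposite strands cannot be told apart.

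Counts were tested with edgeR 4.0.16 in R 4.3.3 (TMM factors, filterByExpr, two-sided quasi-likelihood test, Benjamini-Hochberg over 14345 genes, threshold 0.05). The filter removed 10108 genes with 0.0971% of the reads. CPM uses TMM factors, values are mean ± SD, and intervals are exact at 95%. A count of 0 allows up to 3 counts, or 0.164 to 0.204 CPM per library, for counting error only. The code was tested on simulated data. Gene positions are from GENCODE M21 (mm10), and promoter sequences from RefSeq GRCm38.p6. No 2 libraries agreed within sampling noise. Alternatives were RLE factors, library totals, no filter, 1 CPM in 3 libraries, DESeq2 1.42.0, limma-voom (limma 3.58.1), a replicate block, and leaving out each library. Replicate numbers in the titles are shared between the groups, and the labels do not say that they mark pairs. Deviations from the group means correlated at 0.168 to 0.363 for each same-number pair and at -0.252 to 0.0891 for other pairs. Deviations within a group sum to 0, so these values depend on each other and do not settle whether the libraries are paired.

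The members and lists were chosen with earlier results of these data known. Genes were named if called, if called with the block, if highest by CPM in a subfamily, or, up to 6 more, by largest fold change among those with non-overlapping groups, together with Ring1 and Rnf2 and the called and 4 highest genes of the transport list. Other members named (such as Kcnj11, Kcnj10, Kcnj3, Kcnj2, Kcnj13, Kcnk2, Kcna5, Kcns2 and Kcne2) were chosen after their values were seen. Some genes that meet these rules are counted in totals but are not reported here by name or drawn in the plots of single genes.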

Additional observations from a re-analysis of the deposited data

How the results depend on the processing

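The 8 higher members were called again with the replicate block and by DESeq2, and Kcna1, Kcnd3 and Kcnip1 also kept their calls without any 1 library. The number of members called higher was 15 by DESeq2, 13 with the replicate block and 3 to 11 with 1 library left out; the number called lower was 1, 1 and 0 to 1. Over all genes, 739 were higher by DESeq2, 873 with the replicate block and 143 to 554 with 1 library left out, against 372; the lower calls were 247, 472 and 19 to 110, and 109 with no filter, against 58. Of the transport list, 0 to 2 were higher and 0 to 1 lower with 1 library left out, and 0 were lower with library totals alone. The members' median log2 fold change was 0.34 with no filter, over 92 members, and 0.30 to 0.92 with 1 library left out. Signs turned for members near 0, whose log2 fold changes with 1 library left out ranged from -0.78 to 0.20 for Kcnj15 (0.06 without mutant library 1, 0.20 without control library 3), from -0.075 to 0.75 for Kcnmb4 (-0.075 without control library 2), from -0.74 to 0.021 for Kcnu1 (0.021 without mutant library 2) and from -0.76 to 0.50 for Kcnv1 (0.50 without control library 3). Kcnv1 was at 0.43 in limma-voom and 0.14 with the replicate block. The cause of these shifts was not tested. Depth limits members with few reads: 44 were not tested, and Kcnb2 and Kcnj4 rest on 4 control reads and 1.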
